A study of Mus musculus and Homo sapiens with 12 samples.

Results

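A set of 8 genes of the red cell surface was followed through loss of the RNA helicase DDX21, a nucleolar protein of ribosome production, in mouse and human blood progenitors. They were taken by name: SLC4A1, ANK1, EPB42, RHAG, GYPC, KEL, ERMAP and AQP1, which the study's tables list among 55487 mouse and 78932 human genes. The choice was made with earlier results of these data known, so counts of calls and ranks among them do not come from a blind choice. All 8 were found once in each species, and all 8 passed the filter on low counts in both experiments. Polyadenylated RNA was sequenced in 12 libraries, 3 in each of 4 groups. The mouse groups were LK cells of the fetal liver at the embryonic stage E13.5, live blood progenitors sorted for Kit and against antigens of mature lineages. The control group (WT) had the genotype Ddx21f/f, and the knockout group (cKO) the genotype Vav-Cre; Ddx21f/f, so both carried the loxP-flanked allele and only cKO carried Cre, which the Vav promoter drives in blood cells. WT therefore holds no control for Cre itself. The human groups were blood stem cell-like cells differentiated from the embryonic stem cell line H1, an established line, so that all 6 libraries share 1 genetic background. They were transduced with lentivirus shNC-mCherry (shNC, the control hairpin) or lentivirus shDDX21-mCherry (shDDX21), and 2 days later live cells bearing CD34, CD43 and CD45 as well as the vector's marker were sorted. The labels name 1 hairpin against DDX21. They do not say how many embryos or cultures stand behind a library, so each p-value measures only the spread between these libraries.

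The red cell membrane is a lipid bilayer tied to a spectrin network, and the ties are protein complexes whose parts are made during erythroid maturation. The anion exchanger band 3 (SLC4A1) is anchored by ankyrin (ANK1) and protein 4.2 (EPB42), and RHAG carries the Rh proteins and a gas or ammonium pore into the same neighbourhood. Glycophorin C (GYPC) anchors the second, actin-based junction. KEL and ERMAP carry the Kell and Scianna blood groups, and AQP1 is the water channel that carries the Colton group. The mouse sort removed cells bearing Ter119, an antigen of maturing erythroid cells, so these LK cells are progenitors that have not built a finished membrane.

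Libraries held between 21116079 and 23898130 counts in the mouse and between 15289510 and 19798608 in the human experiment. Ddx21 was at 6208 to 6981 counts in cKO against 29393 to 31438 in WT, or 19.7% of the WT level, and DDX21 at 1168 to 1336 counts in shDDX21 against 7128 to 9012 in shNC, or 14.5%. Human replicates were close to each other, with a biological coefficient of variation of 2.23%, whereas mouse replicates varied by 10.5%. WT replicate 3 stood apart from WT replicates 1 and 2, with a chi-square per degree of freedom of 15.7 and 10.9 against 1.96 between the latter, and cKO replicates 1 and 2 differed by 25.1. Levels are given in CPM, the count of a gene relative to the scaled size of its library. The sort was checked on its antigens: Kit stood at 362 ± 5.02 CPM in WT and at 317 ± 5.17 CPM (SD, n = 3 each) in cKO, while Cd3e and Ly6g had at most 1 count in any mouse library. Itgam, which encodes the excluded antigen Cd11b, was not at 0, with 67 to 77 counts per WT library and 48 to 61 per cKO library. Human CD34 stood at 249 ± 3.06 CPM in shNC and 297 ± 1.87 CPM in shDDX21, with KIT, PTPRC and SPN also present. Early erythroid genes were present in both, with Gata1 at 236 ± 16.1 CPM in WT and GATA1 at 192 ± 3.24 CPM in shNC. Among the mouse libraries the 4 genes Uty, Kdm5d, Eif2s3y and Ddx3y of chromosome Y summed to 133, 140.4 and 147 CPM in WT and 263, 299.6 and 278 CPM in cKO, a median log2 fold change of 1.03. The mix of embryo sexes and the genotype cannot be told apart.

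The start regions of 5 of the mouse genes are shown so that their sequences can be read beside the values below. GATA1, the erythroid master regulator, is known to bind GATA-type letters, and KLF1 CACCC-type letters. RefSeq promoter windows for the GRCm38.p6 build were found for 5 of the 8 mouse genes, and no human window was used here. Each is printed from at most 250 bases upstream to just before the earliest annotated start, read 5′ to 3′ on the gene's strand. Capitals mark AGATAA or TGATAA, or else CCNCNCCC, on either strand, where N is any base.
Epb42, chr2:121037073-121037127, minus strand, 55 bases: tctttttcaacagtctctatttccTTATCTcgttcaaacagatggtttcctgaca
Ermap, chr4:119190012-119190245, minus strand, 234 bases: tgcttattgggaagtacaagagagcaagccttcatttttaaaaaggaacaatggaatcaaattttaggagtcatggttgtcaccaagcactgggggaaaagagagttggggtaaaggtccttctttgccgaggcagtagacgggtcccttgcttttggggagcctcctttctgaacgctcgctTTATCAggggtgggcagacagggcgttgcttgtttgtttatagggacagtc
Kel, chr6:41704340-41704575, minus strand, 236 bases: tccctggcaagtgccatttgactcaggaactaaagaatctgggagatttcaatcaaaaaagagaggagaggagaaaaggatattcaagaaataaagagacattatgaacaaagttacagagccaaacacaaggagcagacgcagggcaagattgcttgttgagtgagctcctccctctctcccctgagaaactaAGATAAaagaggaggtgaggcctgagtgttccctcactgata
Rhag, chr17:40810899-40811125, plus strand, 227 bases: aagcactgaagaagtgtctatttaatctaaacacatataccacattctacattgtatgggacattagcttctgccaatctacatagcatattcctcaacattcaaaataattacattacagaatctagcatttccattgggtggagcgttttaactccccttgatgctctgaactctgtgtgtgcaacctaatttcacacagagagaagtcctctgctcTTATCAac
Aqp1, chr6:55336049-55336298, plus strand, 250 bases: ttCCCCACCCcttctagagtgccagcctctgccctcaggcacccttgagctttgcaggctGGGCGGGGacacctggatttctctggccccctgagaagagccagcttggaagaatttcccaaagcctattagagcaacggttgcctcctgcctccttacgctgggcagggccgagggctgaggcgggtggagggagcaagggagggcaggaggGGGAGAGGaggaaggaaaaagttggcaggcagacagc
In full windows of 250 bases, AGATAA or TGATAA was found in 4 of these 5 genes, all but Aqp1, against 16.6% of 32851 promoter windows of the same length. AGATAA alone was in 9.99% of all windows and TGATAA in 7.94%. The match in Rhag lies within the last bases before the start, and Kel has a further TGATAA that runs into an annotated start and is not shown. Aqp1 held CCNCNCCC at 3 places, a motif present in 45.9% of windows, and none of the other 4 genes held it. The Aqp1 window was also the richest of these 5 in G and C, at 62.0% against 39.2% in Rhag, 43.2% in Epb42, 45.6% in Kel and 49.2% in Ermap. All 5 genes with a window fell in cKO, by differing amounts, and Slc4a1, Gypc and Ank1 had no window. The motif could therefore not be compared between genes that fell and genes that did not. No share over erythroid genes alone was computed. A match describes the letters of the window and is not a measured binding site.

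In mouse LK cells the water channel gene fell far more than the rest. Aqp1 dropped to 9.12% of its WT level, Ermap to 53% and Epb42 to 60.0%, while Ank1, Rhag and Kel fell by smaller amounts. Slc4a1, which encodes the main membrane protein, rose to 149% of WT. By the quasi-likelihood test of edgeR, adjusted after Benjamini and Hochberg over all genes, 7 of the 8 genes were called at an adjusted p under 0.05, 1 higher and 6 lower. The background was 36.5% of 14918 genes called, 20.7% higher and 15.8% lower. The median log2 fold change of the 8 was -0.42, against 0.00 over all genes tested. Scaling to total counts left 7 calls but split them as 2 higher and 5 lower. Over all genes it moved the split from 3083 higher and 2360 lower to 3565 higher and 1612 lower. These are sums over sorted cells, so fewer cells of a type and less RNA per cell cannot be told apart.

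In the mouse Slc4a1 rose, while Ank1 and Epb42, whose proteins anchor band 3, fell. Rhag, of the same neighbourhood, fell as well and is given below. Slc4a1 (ENSMUSG00000006574, chromosome 11, 102348824 to 102366203, minus strand) had 48.3, 48.1 and 43.5 CPM in WT and 73.7, 62.7 and 72 CPM in cKO. Every cKO library lay above every WT library, with means of 46.6 ± 2.71 and 69.5 ± 5.92 CPM (SD, n = 3 each), a difference of 0.58 on the log2 scale (SE 0.077, adjusted p 0.00121). Ank1 (ENSMUSG00000031543, chromosome 8, 22974844 to 23150497, plus strand), whose protein links band 3 to spectrin, had 592, 576 and 498 CPM in WT and 415, 331 and 367 CPM in cKO. Its groups did not overlap, and its mean fell from 555 ± 50.5 to 371 ± 42.5 CPM (SD, n = 3 each), a difference of -0.58 on the log2 scale (SE 0.096, adjusted p 0.00306). Of its exon bases, 862 (6.37%) are shared with Gm15816 on the opposite strand, which had at most 64 counts in a library. Epb42 (ENSMUSG00000023216, chromosome 2, 121017891 to 121037072, minus strand), for the protein that stabilises the band 3 anchor, was the steadiest of these, at 64.9, 66.6 and 67 CPM in WT and 40.2, 41.3 and 37.6 CPM in cKO. The groups were well apart, and the log2 fold change came to -0.74, with SE 0.054 and adjusted p 6.56e-05.

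The Rh-associated and junctional genes moved little in the mouse. Rhag (ENSMUSG00000023926, chromosome 17, 40811126 to 40840754, plus strand) had 269, 279 and 282 CPM in WT and 224, 247 and 228 CPM in cKO, a decrease to 84.2% without overlap. Its log2 fold change came to -0.25, with SE 0.046 and adjusted p 0.00548. Gypc (ENSMUSG00000090523), the glycophorin that binds protein 4.1, had 111, 108 and 112 CPM in WT and 116, 127 and 117 CPM in cKO. It was the gene that did not pass the test: its log2 fold change was 0.12 (95% interval 0.01 to 0.23, adjusted p 0.086), although its 3 cKO libraries lay above its 3 WT libraries. Gypc passed without cKO replicate 1 (log2 fold change 0.16, adjusted p 0.0452).

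Among the blood group genes, Kel followed Rhag and Ermap fell further. Kel (ENSMUSG00000029866, chromosome 6, 41686330 to 41704339, minus strand), an endopeptidase of the Kell complex, had 136, 144 and 151 CPM in WT and 117, 127 and 118 CPM in cKO. The groups were apart, and the log2 fold change came to -0.25, with SE 0.053 and adjusted p 0.0097. With total-count scaling Kel no longer passed (log2 fold change -0.19, adjusted p 0.0605). Ermap (ENSMUSG00000028644, chromosome 4, 119175457 to 119190011, minus strand), an immunoglobulin-family protein of erythroid cells, had 888, 888 and 931 CPM in WT and 471, 495 and 468 CPM in cKO. All 3 cKO libraries were close to each other and far under WT, with means of 903 ± 24.7 and 478 ± 14.7 CPM (SD, n = 3 each), -0.92 on the log2 scale (SE 0.039, adjusted p 5.70e-06).

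Aqp1 (ENSMUSG00000004655, chromosome 6, 55336432 to 55348555, plus strand) carried the largest change of the 8. The WT libraries held 3390, 3015 and 2600 reads of it and the cKO libraries 322, 271 and 292, which equal 152, 147 and 121 CPM against 14, 11 and 13.2 CPM. The 2 ranges are far apart, and the lowest WT library is the one that stood apart in all genes. The mean fell from 139.8 ± 16.8 to 12.7 ± 1.58 CPM (SD, n = 3 each), 11-fold, with a log2 fold change of -3.46 (SE 0.12, 95% interval -3.75 to -3.17, adjusted p 2.76e-06). Without WT replicate 3 the log2 fold change was -3.56, and over the 13 alternatives run it ranged from -3.56 to -3.34. It was the lowest log2 fold change among the 9687 genes with a mean of at least 5 CPM and the 6th lowest of all 14918. The summed level of the 4 genes of chromosome Y moved alongside it, from 133 to 147 CPM over the WT libraries to 263 to 299.6 CPM over the cKO libraries, and its part in the decrease was not tested. Aqp1 was also the only 1 of the 8 genes to change by at least 2-fold, where the background was 9.08% of genes, 1.8% lower and 7.27% higher.

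**Figure D1:**
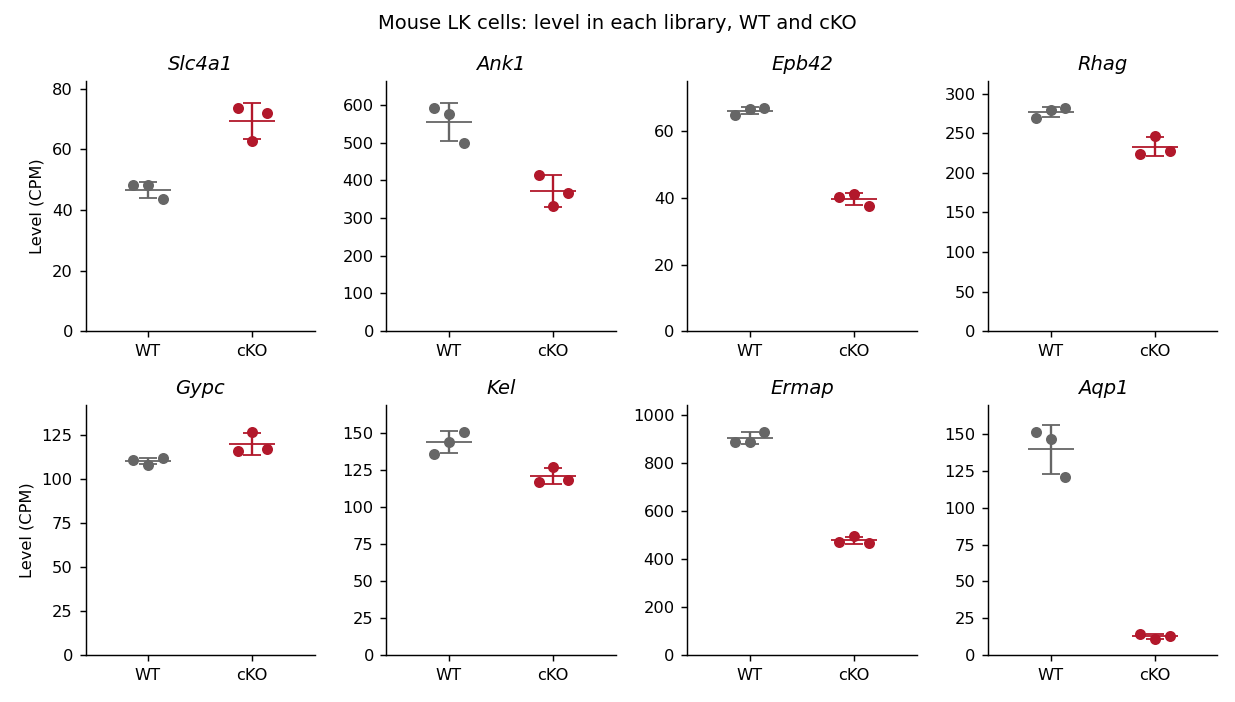
Level of each of the 8 genes in CPM (vertical axis from 0) in the 3 WT and 3 cKO mouse libraries, 1 panel per gene; points are libraries, the long bar is the mean and the error bar 1 SD. Aqp1 drops from 139.8 to 12.7 CPM, Slc4a1 is the called gene that rises, and no panel shows overlapping groups.

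The 8 genes did not overlap between WT and cKO in any case, which was also true of 49% of all genes tested. Leaving out WT replicate 3 gave the same count of 7 calls, 1 higher and 6 lower. In Aqp1, Slc4a1 and Ank1 the lowest WT library was replicate 3 and the lowest cKO library replicate 2, whereas in Gypc, Rhag, Kel, Epb42 and Ermap cKO replicate 2 was the highest of its group. The log2 fold change of Ank1 was -0.66 without cKO replicate 1 and -0.49 without cKO replicate 2.

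In human H1-derived cells most of the same genes moved upward and AQP1 did not pass the test. EPB42 rose 2.16-fold from a low level, KEL rose to 167% of the control, SLC4A1 to 139% and GYPC to 137%, while RHAG fell to 79.3%. The test called 6 of the 8 genes, 5 higher and 1 lower. The background was 52.7% of 20188 genes called, 25.3% higher and 27.4% lower, so a call is a common event in this experiment. The median log2 fold change of the 8 was 0.29, against 0.01 over all genes tested. All human genes have positions on hg38, the human build named in the submitters' processing notes.

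SLC4A1 and the genes of its anchors, ANK1 and EPB42, rose in the human cells, while RHAG, of the same neighbourhood, fell. SLC4A1 (ENSG00000004939, chromosome 17, 44248390 to 44268141, minus strand) had 48.7, 49.6 and 47.4 CPM in shNC and 64.4, 72.1 and 66.5 CPM in shDDX21. The groups were apart, by 0.48 on the log2 scale (SE 0.046, adjusted p 1.50e-14). ANK1 (ENSG00000029534) had 159, 173 and 161 CPM in shNC and 178, 177 and 177 CPM in shDDX21. Its increase was small, 0.11 on the log2 scale (SE 0.03, adjusted p 9.12e-04), and the highest control library came close to the shDDX21 libraries. Of the ANK1 exon bases, 1223 (11.1%) lie opposite another gene, which had at most 23 counts in a library. EPB42 (ENSG00000166947, chromosome 15, 43197227 to 43221018, minus strand) rested on few reads, with 69, 51 and 69 in the shNC libraries against 162, 136 and 124 in the shDDX21 libraries. Each shDDX21 library was nevertheless far above each control, at 7.81 ± 0.663 against 3.62 ± 0.278 CPM (SD, n = 3 each). Its log2 fold change of 1.11 (SE 0.14, adjusted p 2.90e-10) was the largest of the 8 and the only 1 past 2-fold, where the background was 7.18% of genes, 3.35% higher and 3.83% lower. Of the EPB42 exon bases, 447 (15.2%) are shared with another gene on the same strand, which had 0 counts in every library. How reads there were assigned is not given in the sources used here.

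RHAG and GYPC went opposite ways. RHAG (ENSG00000112077, chromosome 6, 49605175 to 49636839, minus strand) had 234, 227 and 233 CPM in shNC and 180.0, 185 and 185 CPM in shDDX21. It was the called gene that fell, by 0.34 on the log2 scale (SE 0.027, adjusted p 7.53e-18). GYPC (ENSG00000136732, chromosome 2, 126656133 to 126696667, plus strand) had 81.5, 86.4 and 82.4 CPM in shNC and 115, 114 and 115 CPM in shDDX21. The shDDX21 libraries were nearly identical and above all controls, and the log2 fold change came to 0.46, with SE 0.035 and adjusted p 7.88e-19.

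KEL rose and ERMAP did not pass the test. KEL (ENSG00000197993, chromosome 7, 142941114 to 142962363, minus strand) had 94.6, 99.4 and 101 CPM in shNC and 168, 167 and 159 CPM in shDDX21. The gap between the groups was many times the spread within them, with means of 98.3 ± 3.36 and 164 ± 5.08 CPM (SD, n = 3 each), a difference of 0.74 on the log2 scale (SE 0.033, adjusted p 1.31e-31). ERMAP (ENSG00000164010, chromosome 1, 42817122 to 42844991, plus strand) had 45, 44.3 and 44.7 CPM in shNC and 45.9, 49.7 and 47.3 CPM in shDDX21, a log2 fold change of 0.09 (95% interval -0.01 to 0.19, adjusted p 0.125). With upper-quartile factors ERMAP passed (log2 fold change 0.16, adjusted p 0.00511). Part of its exons lies opposite ZNF691-DT (478 bases, 8.36%).

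AQP1 (ENSG00000240583, chromosome 7, 30911853 to 30925517, plus strand) was counted 229, 185 and 241 times in the shNC libraries and 234, 199 and 211 times in the shDDX21 libraries. Scaled, these were 12.1, 12.1 and 13.6 CPM against 12, 11.8 and 12 CPM, a difference smaller than the SD of the controls. The log2 fold change was -0.08 (SE 0.094, 95% interval -0.26 to 0.11, adjusted p 0.522). This interval leaves out a decrease of the size measured in the mouse. Of the AQP1 exon bases, 910 (27.9%) are shared with the gene ENSG00000250424 on the same strand, which had at most 2 counts in a library, and how reads there were assigned is not given in the sources used here.

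**Figure D2:**
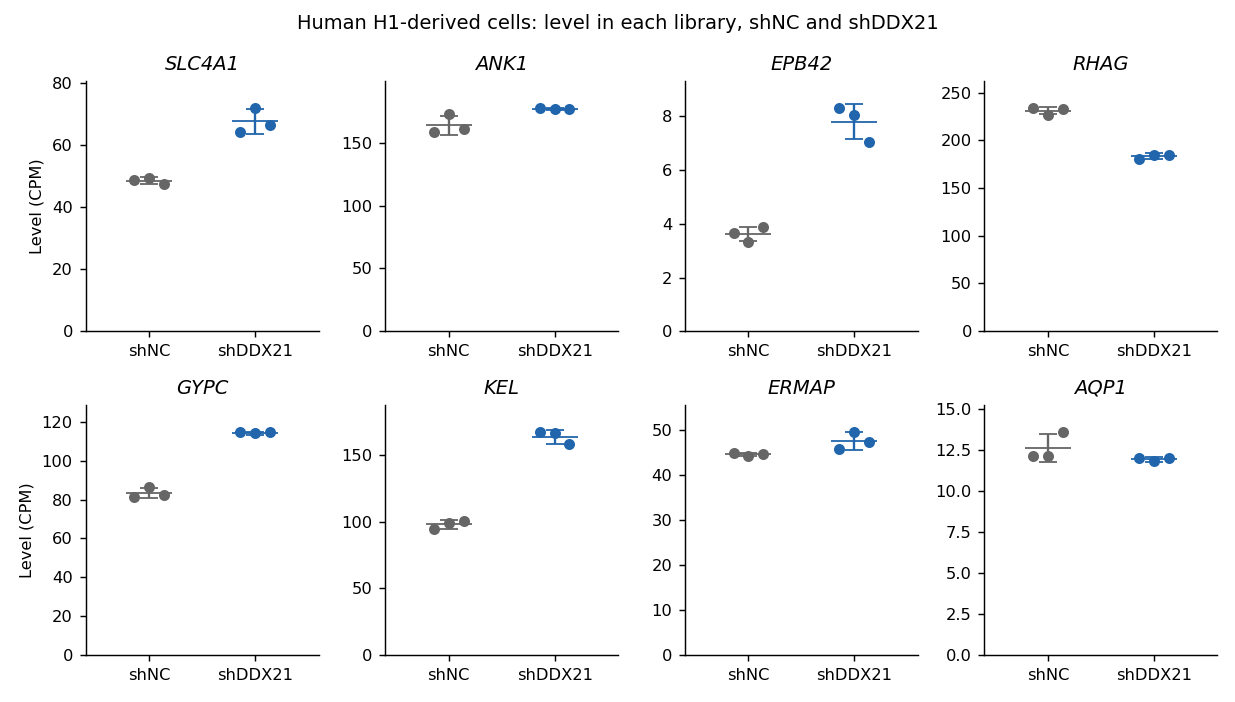
Level of each of the 8 genes in CPM (vertical axis from 0) in the 3 shNC and 3 shDDX21 human libraries; points are libraries, the long bar is the mean and the error bar 1 SD. KEL, GYPC, SLC4A1 and EPB42 stand clear above the control, RHAG below it, and AQP1 lies near 12 CPM in both groups.

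The human groups did not overlap for any of the 8 genes, though for AQP1 and ERMAP the gap was small, and 57.4% of all genes tested shared this. Leaving out any 1 human library gave 6 calls each time.

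Whether loss of DDX21 moved a gene differently in the 2 experiments was tested directly, as the mouse minus the human log2 fold change in 1 fit of all 12 libraries over 10301 genes matched by symbol. The difference was called for 6 of the 8 genes, and in each the mouse value was the lower. The background was 56.3% of genes called, 20.4% with the mouse lower and 35.9% with it higher. AQP1 differed most, by -3.38 (SE 0.15, adjusted p 9.90e-09). EPB42 fell in the mouse and rose in the human cells, a difference of -1.84 (SE 0.11, adjusted p 7.54e-08). The joint fit takes 1 spread per gene for both experiments, although mouse replicates varied by 10.5% and human replicates by 2.23%. For EPB42 its SE lies under the 0.14 of the human fit alone, so SE and p-values of these differences are approximate. ERMAP differed by -1.01 (SE 0.052, adjusted p 2.49e-08) and KEL by -0.99 (SE 0.068, adjusted p 2.48e-07). ANK1 differed by -0.69 (SE 0.11, adjusted p 2.65e-04) and GYPC by -0.33 (SE 0.058, adjusted p 4.30e-04). SLC4A1 and RHAG, each called with 1 sign throughout, gave differences that missed the threshold, 0.10 (SE 0.097, adjusted p 0.407) and 0.09 (SE 0.054, adjusted p 0.192). EPB42, KEL and ANK1 were called with opposite signs, as were 12.9% of matched genes, and SLC4A1 and RHAG with the same sign, as were 16.9%. Species, cell source, kind of perturbation and time after it all differ between the experiments and cannot be told apart.

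**Figure D3:**
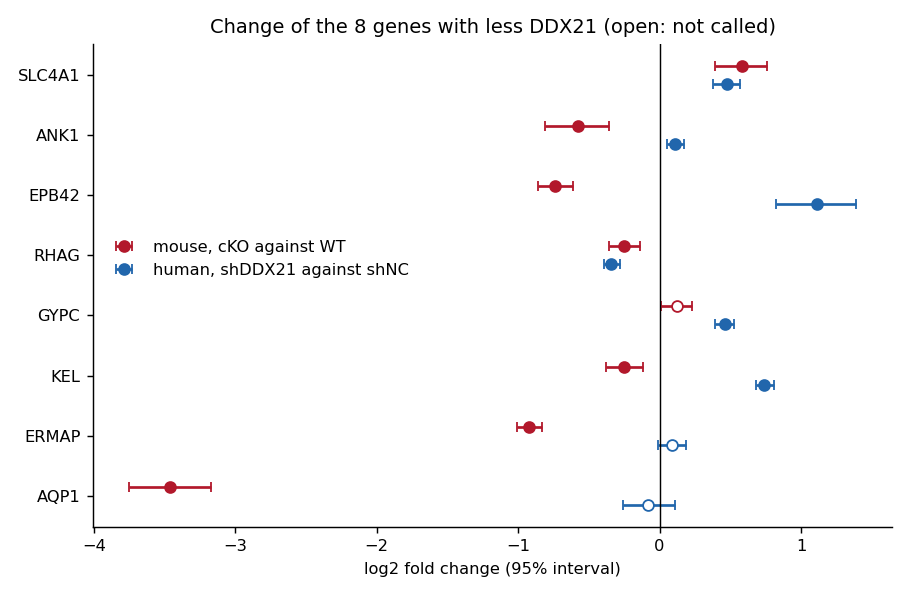
Log2 fold change of each of the 8 genes (horizontal axis) with its 95% interval, cKO against WT in red and shDDX21 against shNC in blue; filled points are called at an adjusted p under 0.05 and open points are not. SLC4A1 and RHAG have neighbouring points in both experiments, and AQP1 stands at -3.46 in the mouse and -0.08 in the human cells.

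Levels between genes were compared per length, as CPM per kilobase of exon (RPKM). The deposited exon length need not be that of the transcript made. It was 5417 bases for mouse Epb42 and 2932 for human EPB42, and an order between genes or species depends on it. In WT the order in RPKM was Ermap at 170.4 ± 4.66, Rhag at 118 ± 2.85, Aqp1 at 53.2 ± 6.4, Kel at 51.8 ± 2.77, Gypc at 47.3 ± 0.719, Ank1 at 41 ± 3.73, Epb42 at 12.2 ± 0.213 and Slc4a1 at 9.53 ± 0.554 (SD, n = 3 each). Aqp1, at 45.9 to 57.9 RPKM, overlapped both Kel (49 to 54.5) and Gypc (46.5 to 47.9), and the other neighbours in that order were apart in all 3 libraries. The gene for band 3, among the most abundant proteins of the finished membrane, was thus the lowest of the 8 transcripts per length in these progenitors. In cKO the order became Rhag at 99.6 ± 5.24, Ermap at 90.2 ± 2.78, Gypc at 51.4 ± 2.74, Kel at 43.5 ± 1.89, Ank1 at 27.4 ± 3.14, Slc4a1 at 14.2 ± 1.21, Epb42 at 7.33 ± 0.349 and Aqp1 at 4.85 ± 0.601 RPKM. By its mean, Aqp1 moved from the 3rd to the last place, and no neighbours in cKO overlapped.

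The human order was the same in shNC and shDDX21. It ran in RPKM from RHAG (88 ± 1.48 in shNC, 69.8 ± 1.19 in shDDX21) through KEL (26.9 ± 0.917, 44.9 ± 1.39), GYPC (23.1 ± 0.723, 31.7 ± 0.17), ANK1 (14.9 ± 0.659, 16.1 ± 0.0771) and SLC4A1 (9.48 ± 0.213, 13.2 ± 0.775) to ERMAP (7.81 ± 0.058, 8.33 ± 0.341), AQP1 (3.86 ± 0.259, 3.66 ± 0.0384) and EPB42 (1.23 ± 0.0948, 2.66 ± 0.226). No neighbours overlapped in either group. RHAG led in 3 of the 4 groups and came after Ermap in WT, whereas ERMAP was only 6th in the human cells.

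**Figure D4:**
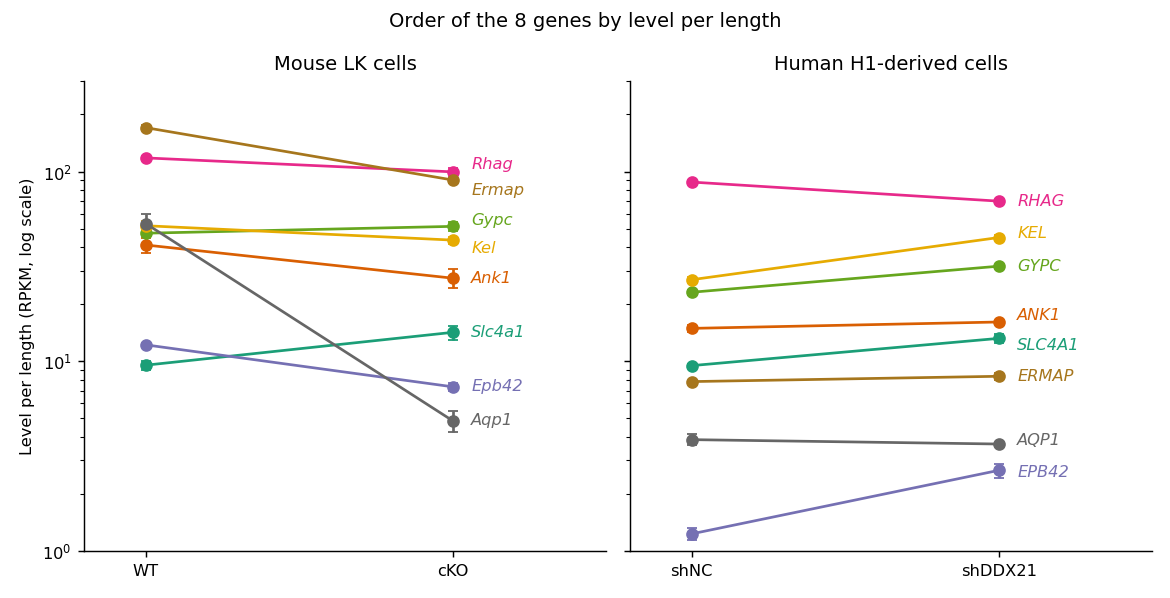
Mean level per length (RPKM, logarithmic axis) of the 8 genes in the control and the perturbed group, mouse on the left and human on the right; error bars are 1 SD over 3 libraries. The mouse lines cross, with the mean of Aqp1 going from 3rd to last, and the human lines keep their order.

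The makeup of the group shifted in both species. Summed over the 8 genes, the level per length was 503, 506 and 503 RPKM in WT and 335, 348 and 333 RPKM in cKO. In the human cells it was 174, 175 and 176 RPKM in shNC and 189, 193 and 189 RPKM in shDDX21. Aqp1 made up 10.6% ± 1.26 of the mouse sum in WT and 1.44% ± 0.208 in cKO (SD, n = 3 each). The share of Slc4a1 went from 1.89% ± 0.107 to 4.2% ± 0.453 and that of Rhag from 23.5% ± 0.549 to 29.4% ± 0.864, although the Rhag level itself fell. In the human cells the share of RHAG went from 50.2% ± 0.935 to 36.7% ± 0.567 and that of KEL from 15.3% ± 0.435 to 23.6% ± 0.645.

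Ratios of 2 genes within a library do not depend on how libraries are scaled. The ratio of Epb42 to Slc4a1 per length was 1.21, 1.25 and 1.39 in WT and 0.492, 0.595 and 0.472 in cKO. The human ratio moved the other way, from 0.131, 0.117 and 0.143 in shNC to 0.226, 0.195 and 0.186 in shDDX21. Protein 4.2 and its partner band 3 thus had transcript ratios without overlap between groups in both experiments. Ank1 over Slc4a1 went from 4.3 ± 0.151 to 1.93 ± 0.0991 in the mouse and from 1.58 ± 0.0476 to 1.22 ± 0.075 in the human cells (SD, n = 3 each). Slc4a1 over Rhag changed by 1.78 times in the mouse and 1.75 times in the human cells, without overlap. Kel over Rhag was 0.437 ± 0.0136 in WT and 0.437 ± 0.00393 in cKO (exact permutation p = 1, two-sided, n = 3 each), a factor of 0.999 between the group means. Both genes had a log2 fold change of -0.25 in the mouse, so this ratio restates those values. With 3 libraries against 3, the test cannot show that a ratio is constant. The human ratio of KEL to RHAG went from 0.305 ± 0.0131 to 0.644 ± 0.0274, more than its spread. Of the 12 ratios computed, the other 11 gave an exact two-sided permutation p of 0.1, which is the smallest that 3 libraries against 3 can give. This p means only that the groups did not overlap. Groups did not overlap for 49% of single genes in the mouse and 57.4% in the human experiment. The share over other pairs of genes was not computed.

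The genes around these 8 in the membrane did not share 1 direction. Of 11 genes for the spectrin skeleton and its junctions, 2 were called higher and 5 lower in the mouse (median log2 fold change -0.08), and 7 higher and 4 lower in the human cells (0.08). Over all genes 20.7% were higher and 15.8% lower in the mouse, and 25.3% higher and 27.4% lower in the human cells. Mpp1, the junction protein that holds glycophorin C with protein 4.1, rose in both: from 59.3 ± 0.989 to 151 ± 6.29 CPM in the mouse (log2 fold change 1.35, adjusted p 1.99e-06) and from 280.3 ± 6.15 to 389 ± 7.04 CPM in the human cells (0.47, adjusted p 6.42e-28). The adducin genes Add1 and Add2, which cap actin at the junction, fell in the mouse by 0.65 and 0.89 on the log2 scale. Sptb, the beta spectrin that ankyrin binds, had a log2 fold change of -0.58 (adjusted p 0.00667), the same value as Ank1. Tropomyosin Tpm3 rose by 0.29 in the mouse, and TPM3 fell by 0.35 in the human cells, as did TPM1 by 0.47 and the dematin gene DMTN by 0.15. ADD3 rose there by 0.18.

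Of 15 other transporters and channels of the red cell, 2 were called higher and 8 lower in the mouse (median log2 fold change -0.28), and 4 higher and 8 lower in the human cells (-0.19). Over all genes the shares were 20.7% higher and 15.8% lower in the mouse and 25.3% higher and 27.4% lower in the human cells, and the list was not tested against them. Stom, for the membrane protein stomatin, fell in both, by 0.62 in the mouse and 0.22 in the human cells on the log2 scale. The nucleoside transporter Slc29a1 and the urea transporter Slc14a1, which carries the Kidd group, fell in the mouse by 0.69 and 0.48. The calcium pumps ATP2B1 and ATP2B4 fell in the human cells, ATP2B1 from 91.6 ± 3.34 to 42.2 ± 0.23 CPM (log2 fold change -1.12, adjusted p 6.27e-35) and ATP2B4 with a log2 fold change of -0.68. The potassium chloride cotransporter Slc12a7 rose in both, by 0.53 and 0.23. Abcg2, an exporter that carries the Junior group, rose by 0.23 in the mouse. MFSD2B, the exporter of sphingosine-1-phosphate, and the mechanosensitive channel PIEZO1 rose in the human cells by 0.38 and 0.20.

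Of the other blood group and surface genes, 5 of 12 tested were called higher and 2 lower in the mouse (median log2 fold change 0.15), and 7 of 17 higher and 5 lower in the human cells (-0.03). The shares over all genes were 20.7% higher and 15.8% lower in the mouse, and 25.3% and 27.4% in the human cells. Rhd, whose protein travels to the membrane with RhAG, fell from 131 ± 1.73 to 57.7 ± 4.21 CPM in the mouse (SD, n = 3 each), or by 1.18 on the log2 scale (adjusted p 1.12e-05), beside -0.25 for Rhag itself. Smim1, the Vel antigen, fell by 0.95 on the log2 scale. Cd55, the complement regulator of the Cromer group, and Art4, of the Dombrock group, rose by 1.37 and 1.29, and the adhesion receptor Cd44 rose by 0.28. In the human cells CD44 fell, with a log2 fold change of -0.80, SEMA7A by 0.17, and CD47, which marks cells as self, rose by 0.29. RHD (log2 fold change 0.54) and GYPB (0.34) were called there too, but RHD with RHCE, and GYPB with GYPE, are near-identical copies among which reads can be split, so these values are uncertain.

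The other water channels did not share 1 direction. Of 14 other aquaporins, 5 were tested in the mouse, with 2 called higher and 1 lower (median log2 fold change 0.12), and 4 in the human cells, with 1 higher and 1 lower (0.09). Among all genes 20.7% were higher and 15.8% lower in the mouse, and 25.3% and 27.4% in the human cells. Aqp3, which also passes glycerol, had 19.1 ± 4.35 CPM in WT and 31.6 ± 9.03 CPM in cKO and was called higher (log2 fold change 0.73, adjusted p 0.047). Its human counterpart AQP3 fell from 7.59 ± 0.285 to 2.93 ± 0.403 CPM (log2 fold change -1.38, adjusted p 1.04e-12). Aqp11, an aquaporin of inner membranes, fell from 14.4 ± 2.59 to 7.59 ± 0.0866 CPM (log2 fold change -0.92, adjusted p 0.00222). Aqp2, Aqp5, Aqp6 and Aqp12 had 0 counts in every mouse library.

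Of 11 erythroid regulators, 3 were called higher and 6 lower in the mouse (median log2 fold change -0.31), where 20.7% of all genes were higher and 15.8% lower. Among their human counterparts 5 were higher and 3 lower (0.04), where 25.3% of all genes were higher and 27.4% lower. Gata1 and Klf1, singled out after their values were seen because their motifs were searched, fell in the mouse. Gata1 went from 236 ± 16.1 to 186 ± 27.7 CPM (log2 fold change -0.35, adjusted p 0.0382) and Klf1 from 112 ± 27.4 to 50.1 ± 13.4 CPM (-1.16, adjusted p 0.00804; SD, n = 3 each). Human KLF1 did not pass the test (log2 fold change -0.08, adjusted p 0.0576). Tal1, which works with GATA1 at erythroid genes, fell by 0.26 in the mouse, as did E2f2 by 0.31 and Bcl11a by 0.29. TAL1 rose in the human cells with a log2 fold change of 0.54, GATA1 with 0.37, and BCL11A fell by 0.73. Foxo3, a factor of late erythroid maturation, rose in both, by 0.69 and 0.52. Lmo2, the bridge between TAL1 and GATA1, rose by 0.17 in the mouse, and LMO2 fell by 0.77 in the human cells. Nfe2 rose by 0.35 in the mouse.

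Of other erythroid genes, 2 of 13 tested were called higher and 8 lower in the mouse (median log2 fold change -0.36), and 9 of 14 higher and 4 lower in the human cells (0.41). The background was 20.7% higher and 15.8% lower in the mouse, and 25.3% and 27.4% in the human cells. This list's summed level is given next, and it was not tested against the background. The summed level of these erythroid genes was 4443 to 4487 CPM in WT and 3592 to 3633 CPM in cKO. It was 2460.3 to 2486 CPM in shNC and 2387 to 2418 CPM in shDDX21, so in the human cells the sum and the median had different directions. The transferrin receptor Tfrc, which brings in iron, fell by 0.81 in the mouse, from 1279 ± 49.9 to 727 ± 34.1 CPM. TFRC fell by 0.78 in the human cells, from 1131 ± 1.94 to 656 ± 10.9 CPM. This gene is a large part of each sum, and in the human cells it fell by more CPM than the sum did. Alas2, the first enzyme of erythroid heme synthesis, rose in both, by 1.01 and 0.57. Carbonic anhydrase Car1, whose product feeds bicarbonate to band 3, rose by 1.17 in the mouse, while Hemgn and the heme enzyme Urod fell by 1.03 and 0.51. In the human cells the mitochondrial iron importer SLC25A37 rose by 0.61 and TRIM58 by 0.72, and the heme enzymes FECH and CPOX fell by 0.11 and 0.10.

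**Figure D5:**
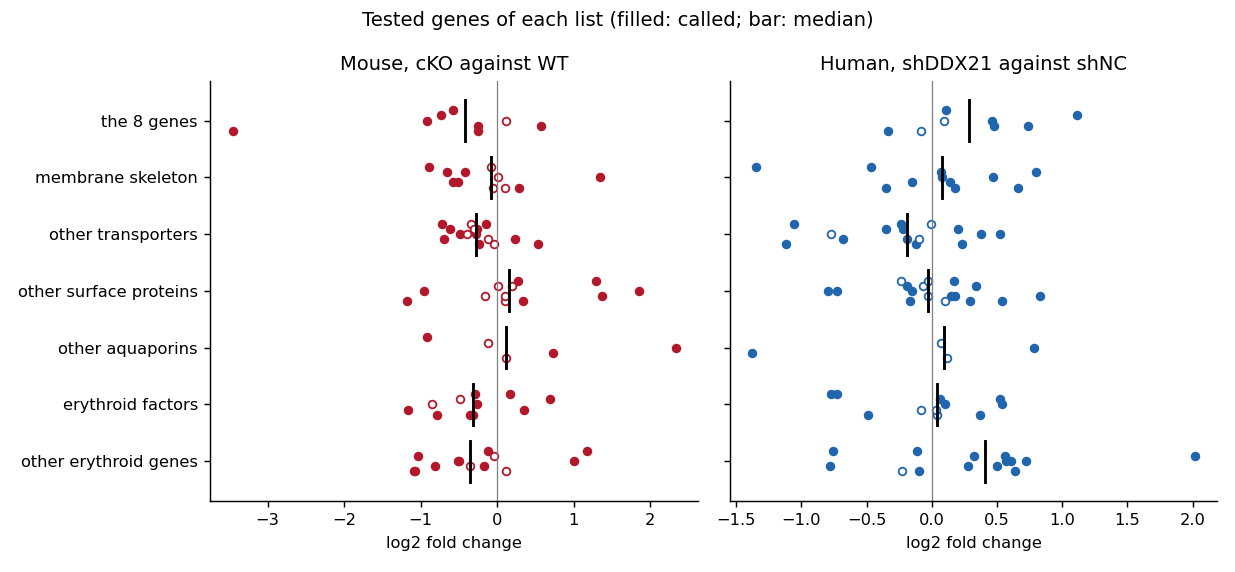
Log2 fold change (horizontal axis) of every tested gene in 7 lists, mouse in red and human in blue; filled points are called at an adjusted p under 0.05, open points are not, and the black bar is the list's median. In the mouse the 8 genes have a median of -0.42 with Aqp1 far to the left, and in the human cells a median of 0.29.

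Markers of other cell types moved alongside these changes, and their part in the values above was not tested. Over all mouse genes tested, 20.7% were called higher and 15.8% lower. In the mouse all 4 tested hepatocyte markers, of 6 in the list, were called higher, and the list summed to 1.31 to 1.72 CPM in WT and 28.3 to 32.2 CPM in cKO, with Alb at 12.1 ± 1.47 and Afp at 14.4 ± 0.579 CPM in cKO. Endothelial markers, some of which stem cells also express, were called higher for 5 of 8 and lower for 0, with sums of 80.2 to 101 CPM in WT and 121 to 141 CPM in cKO. Tek rose by 2.05 and Pecam1 by 0.43, and Cldn5 was at 0 in every library. Megakaryocyte markers were called higher for 4 of 7 and lower for 0 (114 to 133 against 192 to 265 CPM), among them Itga2b by 1.04 and Gp1ba by 0.39. Granulocyte, monocyte and macrophage markers were called lower for 4 of 5 and higher for 1 (609.9 to 839 against 301 to 537 CPM). Csf1r, Elane and Mpo had log2 fold changes of -2.08, -2.18 and -0.81, Cd68 rose by 0.33, and C1qc was at 0. Of 4 mast cell markers, Cpa3 was called higher (0.70), with sums of 75.6 to 77.2 against 97.1 to 104 CPM. Kit, on which the mouse cells were sorted, fell by 0.19. Of the genes for the antigens of the human sort, Cd34 rose by 0.69 and Ptprc (CD45) by 0.51 in the mouse, and Spn (CD43) fell by 0.14.

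In the human cells, endothelial markers were called higher for 4 of 10 and lower for 4 (1851 to 1904 CPM in shNC, 1615 to 1638 CPM in shDDX21), with TEK, LYVE1 and ESAM higher by 0.61, 0.79 and 0.19, and PLVAP, EGFL7 and KDR at log2 fold changes of -1.15, -0.55 and -0.31. Megakaryocyte markers were called higher for 3 of 6 and lower for 1 (1618 to 1695 against 1896 to 1929 CPM), with ITGA2B at 0.23 and GP9 at 0.30. Myeloid markers were called lower for 5 of 7 and higher for 1 (574 to 597 against 487 to 492 CPM): MPO, CD14 and C1QC had log2 fold changes of -2.36, -1.27 and -0.46, and CSF1R rose by 0.22. Of 5 mast cell markers 1 was higher and 1 lower (355 to 358 against 358 to 364 CPM). Beside these counts, 25.3% of all human genes tested were called higher and 27.4% lower. No hepatocyte marker is paired with a human identifier in the tables. Of the genes for the antigens on which the human cells were sorted, SPN (CD43) and CD34 rose by 0.35 and 0.26, and PTPRC (CD45) had a log2 fold change of -0.45. KIT and ITGAM, whose products served in the mouse sort, had log2 fold changes of 0.13 and -0.67.

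Genes with a course like Aqp1 or Slc4a1 over the 6 libraries of an experiment were found by the distance between centred log2 CPM profiles. Of the genes reported here for mouse Aqp1, out of 9310 compared, Lhfpl2 lay at a distance of 0.85 (17.7 ± 2.8 CPM in WT, 2.12 ± 0.925 in cKO) and the recombinase gene Rag1, of early lymphoid cells, at 0.989 (11.1 ± 0.78 and 1.51 ± 0.237 CPM). For Slc4a1 the distances were smaller: Sec22c at 0.0806, the DNA methyltransferase gene Dnmt3b at 0.0927 (140.4 ± 7.17 and 217 ± 14 CPM) and Hint2 at 0.0975. In the human cells, among 11009 genes, the nearest to SLC4A1 was CA2 at 0.0499, the carbonic anhydrase of red cells (63.5 ± 1.03 and 90.2 ± 3.94 CPM), with SLFN13 at 0.0597. The nearest to AQP1 were PRELID3B at 0.049, DYRK3 at 0.0599 and PRTFDC1 at 0.0633, none of which passed the test. The profiles hold 6 libraries in 2 groups, so such a distance mostly reflects the difference between the groups.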

How the data were processed

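Per the labels' protocols, RNA was extracted from sorted cells with a column kit and made into poly(A)-enriched libraries. STAR, featureCounts, DESeq2, mm10 and hg38 are named in the submitters' processing notes. The strand setting and the handling of reads shared by genes are not given in the sources used here. Each deposited raw table gives, per gene, its position, its exon length and a whole read count for every library. The deposited normalized signal was checked to be the count divided by 1 constant per library (largest relative deviation 4.97e-10) and served, with its paired symbols, only for names. The deposited log2 ratios to the mean control were not used.

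The 2 experiments were fitted separately with edgeR 4.0.16 (R 4.3.3; filterByExpr, TMM factors, two-sided quasi-likelihood test). Genes with an adjusted p under 0.05 (Benjamini-Hochberg, over all genes tested) were called. CPM are TMM-scaled, RPKM divide them by the deposited exon length, and SE is the size of the log2 fold change divided by the root of F. The difference between experiments was an interaction term, with scaling within each experiment and 1 spread per gene over both. Alternatives were other scaling factors, other filters, the replicate number as a block, DESeq2 1.42.0, a 2-fold rule and leaving out each library. The fits were tested on simulated data.

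The 8 genes and the lists were chosen with earlier results of these data known, and the Y-linked genes were added after the results were seen. From each list, the rule names up to 3 genes called in each direction with the smallest p and a mean of at least 5 CPM. It also names the 3 genes nearest to AQP1 and SLC4A1 in centred log2 CPM (prior count 2). Several genes that this rule picks are not reported here. Genes with a lower mean are given only where a list counts them at 0 or as a check of the sort. Promoter sequences are RefSeq's. The counts carry no molecular identifiers, and precision was taken from the spread between libraries.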

Additional observations from a re-analysis of the deposited data

Results flagged for a closer look

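The effect of losing DDX21 differed between the mouse and the human experiment for 6 of the 8 genes, by the interaction term of edgeR's quasi-likelihood fit with Benjamini-Hochberg adjustment. Over all 10301 matched genes 56.3% were called in the same way, 20.4% with the mouse lower. AQP1 had a mouse minus human difference of -3.38 in log2 fold change, with all 3 cKO libraries under WT and a human interval that includes 0. EPB42 differed by -1.84, with all 3 cKO libraries lower than WT and all 3 shDDX21 libraries higher than shNC. KEL, at -0.99, and ANK1, at -0.69, were likewise called with opposite signs in the 2 experiments. These signs rest on small values on 1 side. Mouse Kel was not called with total counts (-0.19, adjusted p 0.0605), and human ANK1 rose by 0.11, or 0.08 with total counts. ERMAP differed by -1.01 and GYPC by -0.33, and each of these was called in 1 of the experiments.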

How the results depend on the processing

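No called value changed direction under any alternative run. Of 104 mouse gene values, 101 stayed on their side of the threshold, as did 103 of 104 human values and 143 of 144 interaction values. The exceptions were Kel, Gypc and ERMAP, given above, Gypc with total counts (0.19, adjusted p 0.0374), and RHAG in the interaction with total counts (0.18, adjusted p 0.034). Requiring at least 2-fold as well left 1 called gene in the mouse and 1 in the human experiment. Leaving out each library gave 7 to 8 calls in the mouse, 6 to 6 in the human experiment and 6 to 6 in the interaction. Replicate numbers did not pair the libraries: same-numbered deviations correlated at 0.32, -0.18 and 0.01 in the mouse and at -0.01 or nearer to 0 in the human experiment. The replicate block gave 7, 6 and 6 calls, and over all genes 5166 in the mouse against 5443. Scaling shifted the median of all genes by at most 0.069. EPB42 in the human cells rests on 51 to 162 counts per library, the fewest of the 8.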
